A study of Mus musculus with 9 samples.

Results

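The genes that encode PRDM16, its partners and its opponents in brown fat fate were followed by name through adipocytes of F1, 129 and B6 mice. The 10 genes were Prdm16, Ehmt1, Ebf2, Ebf1, Ebf3, Zfp516, Irf4, Zfp423, Tle3 and Mecom. They were chosen for their known roles, but with earlier results of these data known. All 10 were found among the 24013 gene symbols of the data. PRDM16 is a zinc-finger coregulator that switches precursor cells towards the brown or beige fat programme and, in mice, keeps muscle and white fat genes silent. It binds DNA largely through partners such as PPARγ, C/EBPβ and the early B cell factors, and carries chromatin enzymes such as EHMT1 with it. Beige adipocytes arise among the cells of subcutaneous white fat, where this programme is inducible.

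Poly(A) RNA was sequenced from cells of the inguinal stromal vascular fraction, the non-adipocyte cells of a subcutaneous fat depot, which had been differentiated in culture for 7 days. There were 3 libraries from F1 offspring of both strains, 3 from 129X1/SvJ (129), which the series describes as resistant to obesity, and 3 from C57BL/6J (B6), which it describes as prone to it. Cells of all groups first received isobutylmethylxanthine, indomethacin, dexamethasone, insulin, T3 and rosiglitazone, and then insulin, T3 and rosiglitazone, a PPARγ agonist, so no group shows differentiation without that drug. The labels give neither the animals' age nor the mother's strain of the F1. They leave unsaid whether the libraries within a group are separate animals or cultures, and the spread behind every p-value may thus be technical. Values are RPKM, reads per kilobase of exon scaled to the reads assigned to all genes of a library.

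The libraries held 39686986 to 53410947 assigned reads in F1, 23710908 to 28473083 in 129 and 19130022 to 26931438 in B6, so every F1 library was deeper than every parental one. All 10 adipocyte markers on a marker list were present, and their summed level was 37542 to 39831 RPKM in F1, 33507 to 35938 in 129 and 29831 to 33936 in B6. Singly, 2 were higher and 1 lower in F1 than in B6, and 3 higher and 2 lower in F1 than in 129. Between the parents, 2 were higher and 3 lower in 129 than in B6. The 9 markers of adipocyte progenitors summed to 361 to 444 RPKM in F1, 513 to 535 in 129 and 476 to 622 in B6, with Dpp4 under 1 RPKM in every library. Of the 8 progenitor markers tested, 1 was higher and 4 lower in F1 than in B6, and 0 higher and 5 lower in F1 than in 129. In 129 against B6, 4 were higher and 2 lower. The 7 thermogenic markers summed to 541 to 578 RPKM in F1, 434 to 469 in 129 and 376 to 394 in B6. Singly they went both ways, with 4 higher and 3 lower in F1 than in 129. Against B6, 5 were higher and 1 lower in F1, and 2 higher and 1 lower in 129. Of 8 mast cell markers, 6 stayed under 1 RPKM and 2 of these, Tpsb2 and Ms4a2, were at 0 in all libraries. The list summed to 25.5 to 31.8 RPKM in F1, 54.2 to 62.6 in 129 and 2.40 to 2.78 in B6. Of the 2 mast cell markers tested, 1 was higher and 1 lower in 129 than in B6, so the summed order does not hold for both. The 2 endothelial markers that were tested, of 5 listed, were both lower in 129 than in B6. The endothelial list summed to 4.09 to 4.42 RPKM in F1, 2.80 to 3.56 in 129 and 5.36 to 6.55 in B6. Over all genes tested, 15.9% were higher and 21.7% lower in 129 than in B6. The shares were 11.0% and 20.2% in F1 against B6, and 12.0% and 15.7% in F1 against 129. The part that these differences in depth and in cell type markers have in the results that follow was not tested. In bulk RNA, fewer cells of a type and less RNA per cell cannot be told apart.

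The members covered a wide range of levels. Per length of transcript, Ebf1 was the highest at 24.7 to 31.7 RPKM and Mecom the lowest at 0.268 to 0.522 RPKM. The order of group means was Ebf1, Tle3, Ebf2, Ehmt1, Ebf3, Zfp516, Zfp423, Prdm16, Irf4 and Mecom in F1. In 129 the order differed only in that Zfp516 stood above Ebf3. In B6, Ehmt1 also stood above Ebf2. The neighbours whose library values overlapped were Prdm16 and Irf4 in F1, Zfp516 and Ebf3 in 129, and both the pair of Ehmt1 and Ebf2 and the pair of Zfp516 and Ebf3 in B6. All other neighbours in the order were separated in every library of their group. Prdm16 itself was thus among the scarcest of the set in all groups, at 0.917 to 1.65 RPKM.

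**Figure D1:**
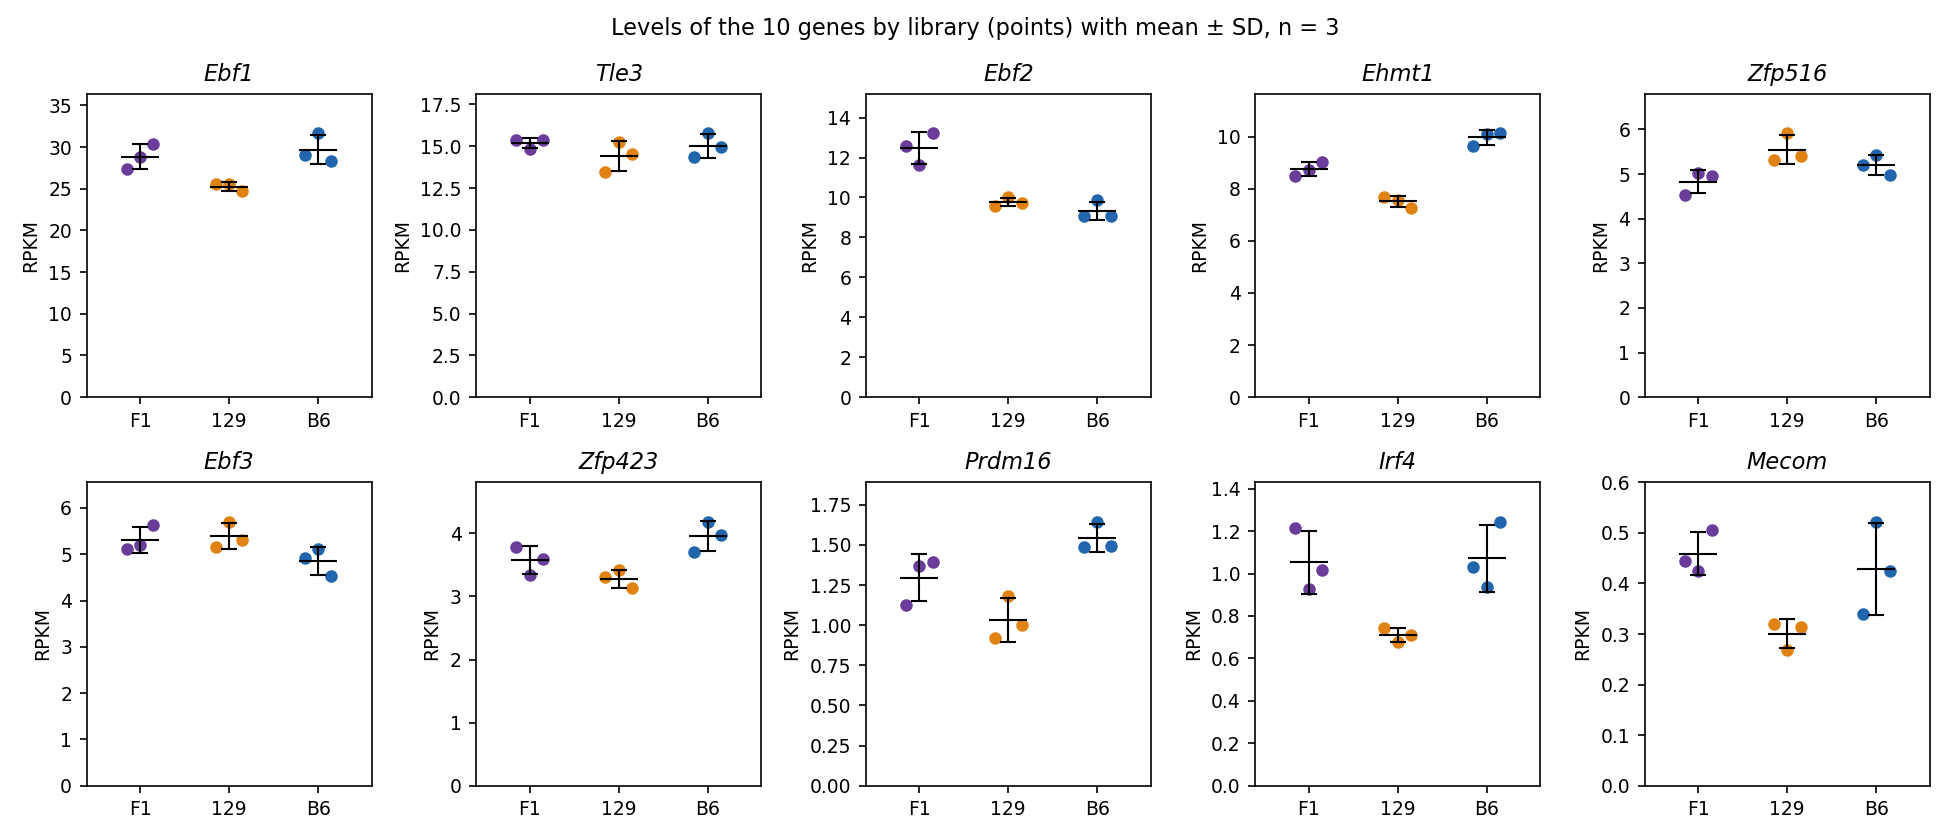
RPKM of each of the 10 members in each library, with 3 F1, 3 129 and 3 B6 libraries from left to right in every panel and bars for the mean and SD of each group. Each panel has its own axis from 0. Ebf2 shows all F1 points at 11.6 RPKM or more and all parental points at 10.0 RPKM or less, while Prdm16 and Ehmt1 have their lowest means in 129 and their highest in B6.

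Prdm16 differed between the parental strains and lay between them in F1. The gene spans chromosome 4, 153690234 to 154010982 on the minus strand (mm9). Prdm16 had 1.13, 1.37 and 1.39 RPKM in F1, 0.917, 1.18 and 0.999 RPKM in 129, and 1.49, 1.65 and 1.49 RPKM in B6. Every B6 library was above every 129 and every F1 library, while F1 and 129 overlapped. The mean was 1.03 ± 0.136 RPKM in 129 against 1.54 ± 0.0892 RPKM in B6 (SD, n = 3 each), a ratio of 0.670. On the log2(RPKM + 1) scale, which understates changes of genes at this level, the difference of 129 minus B6 was -0.32 (SE 0.07), with an adjusted p of 0.00576 in limma. The same difference was -0.54 with a pseudocount of 0.1 and -0.57 with limma's voom on recovered reads, and it passed the threshold of 0.05 in all 17 alternative analyses. F1 did not pass against either parent, at -0.15 (adjusted p 0.152) against B6 and 0.18 (adjusted p 0.106) against 129, although the difference from 129 passed with voom on recovered reads at 0.33 (adjusted p 0.0328). On the log2 scale F1 lay 45.9% of the way from B6 to 129, and its difference from the mid-parent value, which averages both parents on the log2 scale, was 0.01 (SE 0.06, adjusted p 0.907). These values rest on 188 to 628 reads per library. Prdm16 reached 1 RPKM in 7 of 9 libraries, and the values of 0.917 and 0.999 RPKM in 129 fell short. It thus entered the test mainly through F1 and B6, where it was higher. In the limma fit without a filter, 129 minus B6 had an adjusted p of 0.00855.

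Ehmt1 encodes the histone H3 lysine 9 methyltransferase that PRDM16 carries in its complex and that brown fat of mice needs for its identity. It spans chromosome 2, 24646289 to 24775129 on the minus strand. Ehmt1 had 8.49, 8.73 and 9.02 RPKM in F1, 7.69, 7.57 and 7.27 RPKM in 129, and 9.65, 10.1 and 10.1 RPKM in B6. No library of any group overlapped with another group, with F1 between the parents. The 129 mean was 0.754 times the B6 mean, a difference of -0.37 on the log2 scale (SE 0.04, adjusted p 6.60e-05 in limma). F1 was lower than B6, at -0.17 (SE 0.04, adjusted p 0.0121) and higher than 129 by 0.20 (SE 0.04, adjusted p 0.00686). With median-of-ratios rescaling the difference from B6 was -0.12 and no longer passed (adjusted p 0.0632). F1 lay 46.6% of the way from B6 to 129, close to the 45.9% of Prdm16. The ratio of Ehmt1 to Prdm16 RPKM was 7.54, 6.39 and 6.47 in F1, 8.39, 6.40 and 7.27 in 129, and 6.48, 6.15 and 6.79 in B6, so that all groups overlapped in it.

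The promoters of Prdm16 and Ehmt1 are shown because both genes fell in 129 relative to B6 and lay near the middle in F1. The windows are those of RefSeq on GRCm38.p6, from 250 bases before to 50 after the annotated start, 5′ to 3′ on the gene's strand. They lie at chr4:154636824-154637123 (minus strand) for Prdm16 and chr2:24919560-24919859 (minus strand) for Ehmt1, and these positions are on another build than those of the expression values. Capitals mark matches to the searched letters on either strand.
Prdm16: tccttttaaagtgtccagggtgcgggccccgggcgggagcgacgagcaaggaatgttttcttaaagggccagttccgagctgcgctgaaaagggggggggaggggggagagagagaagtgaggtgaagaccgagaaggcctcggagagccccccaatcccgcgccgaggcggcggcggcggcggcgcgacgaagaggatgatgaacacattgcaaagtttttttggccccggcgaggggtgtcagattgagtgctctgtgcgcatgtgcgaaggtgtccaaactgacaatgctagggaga
Ehmt1: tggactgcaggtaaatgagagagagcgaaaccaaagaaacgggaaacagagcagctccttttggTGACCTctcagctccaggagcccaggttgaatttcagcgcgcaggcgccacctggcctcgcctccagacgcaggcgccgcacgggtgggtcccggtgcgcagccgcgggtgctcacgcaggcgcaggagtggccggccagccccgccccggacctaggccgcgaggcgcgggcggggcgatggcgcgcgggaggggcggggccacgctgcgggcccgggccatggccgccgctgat
The letters searched on both strands were the EBF core CCCNNGGG, the nuclear receptor motif AGGTCA, the NFI motif TTGGCA and the interferon response core GAAANNGAA. The Prdm16 window held none of them. The Ehmt1 window held 1 nuclear receptor motif, on the opposite strand, starting at position -186 from the gene's start. Of 32851 promoter windows of the same length, 16.3% held AGGTCA, 13.7% CCCNNGGG, 14.1% TTGGCA and 8.56% GAAANNGAA. TTGGCA was in no window of the 8 members that had one. A match is a string of letters and not a bound site.

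A transcript inside the Prdm16 gene was, like Prdm16, lower in 129 than in B6. The RIKEN transcript 5930403L14Rik lies at chromosome 4, 154004800 to 154010476, on the same strand as Prdm16 and within its span, and shares 0 exon bases with it. It had 4.02, 4.33 and 4.36 RPKM in F1, 2.86, 3.21 and 2.97 RPKM in 129, and 4.48, 4.62 and 4.47 RPKM in B6. All 129 libraries were below all others, and F1 was close to B6. The difference was -0.46 for 129 minus B6 (SE 0.05, adjusted p 4.87e-05), -0.08 for F1 minus B6 (adjusted p 0.278) and 0.38 for F1 minus 129 (adjusted p 3.91e-04). In F1 the transcript exceeded the mid-parent value by 0.15 (SE 0.04, adjusted p 0.0318 in limma), where Prdm16 stood at 0.01. Unspliced Prdm16 RNA and this transcript cannot be told apart in these values. Tprgl, the nearest tested gene on the other side, went the other way, at 0.21 for 129 minus B6 (SE 0.05, adjusted p 0.0104).

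Ebf2 was the member in which F1 stood outside both parents. EBF2 marks precursor cells committed to brown fat in mice and brings PPARγ to brown-selective genes, Prdm16 among them. The gene spans chromosome 14, 67852129 to 68049789 on the plus strand. Ebf2 had 12.6, 11.6 and 13.2 RPKM in F1, 9.59, 10.0 and 9.73 RPKM in 129, and 9.09, 9.86 and 9.06 RPKM in B6. All F1 libraries were above all parental libraries, and the parents overlapped. The mean was 12.5 ± 0.811 RPKM in F1, 9.78 ± 0.213 RPKM in 129 and 9.34 ± 0.451 RPKM in B6 (SD, n = 3 each). F1 was 1.34 times B6 and 1.28 times 129. On the log2 scale F1 was higher than B6 by 0.38 (SE 0.05, adjusted p 4.09e-04), than 129 by 0.32 (SE 0.05, adjusted p 0.00141) and than the mid-parent value by 0.35 (SE 0.05, adjusted p 5.26e-04). All these differences passed in each of 17 alternative analyses, with ranges of 0.34 to 0.44, 0.28 to 0.37 and 0.31 to 0.40. The parents differed by 0.06 (SE 0.05, adjusted p 0.395). Across all genes tested, 5.72% had every F1 library above every parental one and 2.82% passed the test as higher than both parents. The comparisons of F1 with each parent and with the mid-parent value share the F1 libraries. Summed progenitor markers were lower in all F1 libraries than in all parental ones, and summed adipocyte markers were higher. Singly, each of these lists held 1 marker that went the other way in F1 against B6.

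The nearest tested neighbour of Ebf2 at lower coordinates, Ppp2r2a, a regulatory subunit of protein phosphatase 2A, was also higher in F1. It averaged 25.6 ± 1.21 RPKM in F1, 22.4 ± 0.630 RPKM in 129 and 20.7 ± 1.26 RPKM in B6 (SD, n = 3 each). The differences were 0.29 against B6 (adjusted p 0.00188), 0.18 against 129 (adjusted p 0.0249) and 0.24 against the mid-parent value (adjusted p 0.00417). Kctd9, the neighbour on the other side, averaged 16.3 RPKM in F1, 17.6 RPKM in 129 and 15.2 RPKM in B6 and passed in 129 minus B6, at 0.20 (SE 0.05, adjusted p 0.00746).

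Ebf1, a regulator of B cell fate that also promotes adipocyte differentiation, followed the strain order of Prdm16 with a smaller difference. It spans chromosome 11, 44431602 to 44821598 on the plus strand. Ebf1 had 27.3, 28.8 and 30.3 RPKM in F1, 25.5, 25.5 and 24.7 RPKM in 129, and 29.1, 31.7 and 28.3 RPKM in B6. All 129 libraries were below all others, and F1 overlapped with B6. The 129 mean was 0.850 times that of B6, a log2 difference of -0.22 (SE 0.05, adjusted p 0.00602) that passed in all 17 alternatives. F1 was higher than 129 by 0.18 (SE 0.05, adjusted p 0.0240), but this call was lost when any 129 library, or F1 replicate 2 or 3, was left out (adjusted p 0.0535 to 0.0880). F1 minus B6 was -0.04 (SE 0.05, adjusted p 0.575). None of 9 lymphocyte markers reached 1 RPKM in any library, and their sum was 0.173 to 0.275 RPKM in F1, 0.280 to 0.384 in 129 and 0.158 to 0.306 in B6.

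Ebf3, the closely related factor that also binds the EBF motif, spans chromosome 7, 144385354 to 144506128 on the minus strand. Ebf3 had 5.11, 5.20 and 5.63 RPKM in F1, 5.16, 5.71 and 5.31 RPKM in 129, and 4.93, 5.11 and 4.52 RPKM in B6. The 129 libraries and the F1 libraries were all above the B6 libraries, the nearest F1 and B6 values both rounding to 5.11, and F1 overlapped with 129. No contrast passed. The difference was 0.13 for 129 minus B6 (SE 0.06, adjusted p 0.104), which passed with median-of-ratios rescaling at 0.16 (adjusted p 0.0486), 0.11 for F1 minus B6 (adjusted p 0.171) and -0.02 for F1 minus 129 (adjusted p 0.851). Ebf4, the remaining member of the family, stayed at 0.198 to 0.395 RPKM and was not tested.

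The make-up of the EBF family differed between the groups. Ebf2 made up 28.0%, 25.5% and 26.9% of the summed RPKM of Ebf1, Ebf2 and Ebf3 in F1, 23.8%, 24.3% and 24.5% in 129, and 21.1%, 21.1% and 21.6% in B6. No groups overlapped in this share, which was highest in F1 and lowest in B6. The ratio of Ebf2 to Ebf1 RPKM was 0.461, 0.403 and 0.436 in F1, 0.376, 0.392 and 0.394 in 129, and 0.312, 0.311 and 0.320 in B6, again without overlap. The share of Ebf1 was 60.7% to 63.1% in F1, 61.9% to 63.4% in 129 and 67.5% to 67.9% in B6, with all B6 libraries above all others. Ebf3 took 11.3% to 11.5% in F1, 12.8% to 13.8% in 129 and 10.8% to 11.4% in B6, with all 129 libraries above all others. For each separation of 3 libraries from 3, an exact permutation test cannot give a p below 0.1. The summed level was 45.0, 45.6 and 49.2 RPKM in F1, 40.3, 41.3 and 39.7 RPKM in 129, and 43.1, 46.6 and 41.9 RPKM in B6, lowest in 129 and overlapping between F1 and B6.

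**Figure D2:**
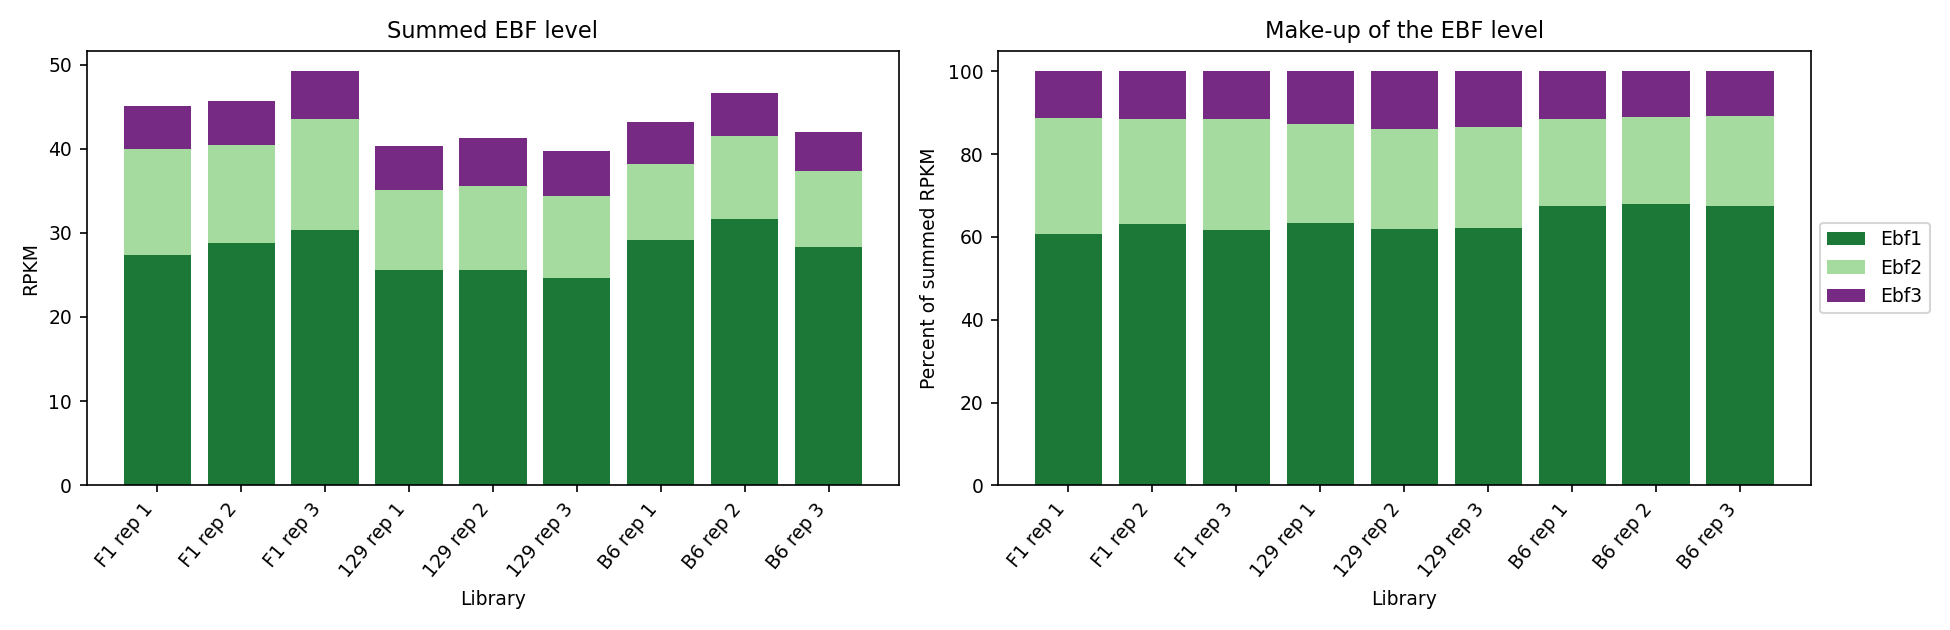
Stacked RPKM of Ebf1, Ebf2 and Ebf3 in each library (left) and the same as percent of their sum (right), with the F1, 129 and B6 libraries from left to right. The Ebf2 share is 25.5% to 28.0% in F1, 23.8% to 24.5% in 129 and 21.1% to 21.6% in B6.

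Zfp516, a cold-induced zinc-finger factor that binds the Ucp1 promoter and interacts with PRDM16, moved the other way in F1. The gene spans chromosome 18, 83080271 to 83174706 on the plus strand. Zfp516 had 4.53, 5.01 and 4.95 RPKM in F1, 5.31, 5.92 and 5.41 RPKM in 129, and 5.20, 5.43 and 4.98 RPKM in B6. All F1 libraries were below all 129 libraries, and B6 overlapped with both. F1 minus 129 was -0.17 (SE 0.06, adjusted p 0.0475), a call at the edge of the threshold that was lost in 11 of 17 alternatives, among them median-of-ratios rescaling (adjusted p 0.0656) and leaving out any 129 or F1 library. The other contrasts did not pass, at 0.08 for 129 minus B6 (adjusted p 0.307), -0.09 for F1 minus B6 (adjusted p 0.248) and -0.13 against the mid-parent value (adjusted p 0.0806, and 0.0413 with voom on recovered reads).

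Irf4, a transcription factor of immune cells that in adipocytes of mice induces lipolysis genes and acts with PGC-1α on Ucp1, was scarce. The gene spans chromosome 13, 30841127 to 30858796 on the plus strand. Irf4 had 1.22, 0.928 and 1.02 RPKM in F1, 0.745, 0.675 and 0.711 RPKM in 129, and 1.03, 0.938 and 1.24 RPKM in B6, from 79 to 239 reads per library. All 129 libraries were below all others, and F1 and B6 overlapped. The gene reached 1 RPKM in 4 libraries, none of them from 129, so it entered the test only through the groups in which it was higher. The 129 mean was 0.663 times that of B6, a log2 difference of -0.27 (SE 0.08, adjusted p 0.0191), and F1 was 1.48 times 129, a difference of 0.26 (SE 0.08, adjusted p 0.0316). On the scale of voom these differences were -0.60 and 0.54. The first call was lost without B6 replicate 3 (adjusted p 0.0752) or 129 replicate 2 (adjusted p 0.0583), and the second without any single 129 library or F1 replicate 1 or 3 (adjusted p 0.0618 to 0.109). F1 minus B6 was -0.01 (SE 0.08, adjusted p 0.920). Lymphocyte markers were under 1 RPKM in all libraries. Macrophage markers summed to 40.4 to 60.2 RPKM in F1, 22.6 to 49.6 in 129 and 47.0 to 59.3 in B6, with Itgam and Ptprc under 1 RPKM throughout. Of the 9 that were tested, 3 were lower and 0 higher in 129 than in B6, where 21.7% of all genes were lower and 15.9% higher. The part of macrophage markers in the Irf4 difference was not tested.

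Zfp423 encodes the zinc-finger factor that commits cells to the adipocyte lineage and, in mice, restrains the thermogenic programme of white adipocytes by holding back EBF2. It spans chromosome 8, 90185709 to 90483494 on the minus strand. Zfp423 had 3.79, 3.35 and 3.59 RPKM in F1, 3.31, 3.41 and 3.13 RPKM in 129, and 3.71, 4.19 and 3.97 RPKM in B6. All 129 libraries were below all B6 libraries, and F1 overlapped with both. The 129 mean was 0.830 times that of B6, a log2 difference of -0.21 (SE 0.06, adjusted p 0.0153) that was lost without 129 replicate 3 (adjusted p 0.0596). F1 passed against neither parent, at -0.12 against B6 (adjusted p 0.153) and 0.09 against 129 (adjusted p 0.263), and lay 55.1% of the way from B6 to 129. The ratio of Ebf2 to Zfp423 RPKM was 3.32, 3.47 and 3.69 in F1, 2.90, 2.93 and 3.11 in 129, and 2.45, 2.35 and 2.28 in B6, with no overlap between any groups.

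Of the 2 RefSeq promoter windows of Zfp423, the one at chr8:87804390-87804689 (GRCm38.p6, minus strand, 5′ to 3′) is shown because it held matches to the EBF core and the nuclear receptor motif next to each other. Capitals mark both matches, which join into 1 run.
Zfp423: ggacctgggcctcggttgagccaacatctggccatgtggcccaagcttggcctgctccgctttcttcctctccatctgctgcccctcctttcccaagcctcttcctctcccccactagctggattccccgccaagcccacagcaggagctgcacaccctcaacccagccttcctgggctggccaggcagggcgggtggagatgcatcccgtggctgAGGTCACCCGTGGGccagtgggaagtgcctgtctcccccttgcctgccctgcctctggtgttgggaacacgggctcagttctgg
The match to AGGTCA starts at position -34 and that to CCCNNGGG at position -28 from the annotated start. The other Zfp423 window held neither. Among the windows of the other members, CCCNNGGG was found in 1 of Ebf3, at position -21, and in 1 of the 2 of Mecom.

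Tle3 did not pass in any contrast or alternative. It encodes a Groucho-type corepressor that promotes white over brown gene expression by competing with PRDM16 for PPARγ, and spans chromosome 9, 61220173 to 61266304 on the plus strand. Tle3 had 15.4, 14.8 and 15.3 RPKM in F1, 13.4, 15.2 and 14.5 RPKM in 129, and 14.4, 15.8 and 14.9 RPKM in B6, and all groups overlapped. The differences were -0.06 for 129 minus B6 (SE 0.05, adjusted p 0.414), 0.01 for F1 minus B6 (adjusted p 0.856) and 0.07 for F1 minus 129 (adjusted p 0.343). The ratio of Tle3 to Prdm16 RPKM was 13.6, 10.9 and 11.0 in F1, 14.7, 12.9 and 14.6 in 129, and 9.65, 9.60 and 10.0 in B6. All B6 libraries were below all others in this ratio, and F1 overlapped with 129.

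Mecom, which encodes PRDM3, the closest relative of PRDM16, was below the level needed for the test, with 0 of 9 libraries at 1 RPKM. It spans chromosome 3, 29850218 to 30408409 on the minus strand. Mecom had 0.444, 0.425 and 0.506 RPKM in F1, 0.321, 0.268 and 0.314 RPKM in 129, and 0.340, 0.522 and 0.425 RPKM in B6, from 41 to 140 reads per library. The 129 libraries were all below those of F1 and B6. In a fit without the filter, over 19079 genes, F1 was higher than 129 by 0.16 on the log2 scale (SE 0.05, adjusted p 0.0455), where 7.03% of genes passed as higher and 9.89% as lower, and by a ratio of means of 1.52. This call was lost in 10 of 15 alternatives, the replicate block and leaving out any 129 or F1 library included. On the log2(RPKM + 0.1) scale the difference was 0.48 (adjusted p 0.0674). The difference of 129 minus B6 was -0.13 (SE 0.05, adjusted p 0.0698) and passed without B6 replicate 1 at -0.18 (adjusted p 0.0197).

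Over the set, 9 of the 10 members were tested, Irf4 among them only, and Prdm16 mainly, through F1 and B6 values. Of the 9, 5 were lower in 129 than in B6 and 0 were higher, where 21.7% of all genes tested passed as lower and 15.9% as higher. The 5 were Prdm16, Ehmt1, Ebf1, Zfp423 and Irf4. The median difference of the 9 was -0.21, against -0.03 over all genes tested. Against B6, F1 had 1 member higher, Ebf2, and 1 lower, Ehmt1, where 11.0% of all genes passed as higher and 20.2% as lower, and the median was -0.04 for both the members and all genes. Against 129, F1 had 4 members higher, Ebf2, Ehmt1, Ebf1 and Irf4, and 1 lower, Zfp516, where 12.0% of all genes passed as higher and 15.7% as lower, with a median of 0.18 against -0.01 for all genes. With single libraries left out, 2 to 5 members passed here. Against the mid-parent value 1 member passed as higher, Ebf2, and 0 as lower, where 8.35% of all genes passed as higher and 14.8% as lower. By library values alone, 1 of the 9 was higher without overlap and 5 were lower in 129 than in B6, where 20.8% and 29.0% of all genes were. In F1 against B6 these counts were 2 and 2, where 16.0% and 28.2% of all genes were, and in F1 against 129 they were 4 and 1, where 19.8% and 24.7% were. The comparisons share libraries pairwise, so their values stand side by side and are not independent. Over all genes, 1834 were called higher and 2499 lower in 129 minus B6, 1270 and 2329 in F1 minus B6, and 964 and 1712 in F1 minus mid-parent. With median-of-ratios rescaling these became 2257 and 1995, 1904 and 1591, and 1425 and 1250.

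**Figure D3:**
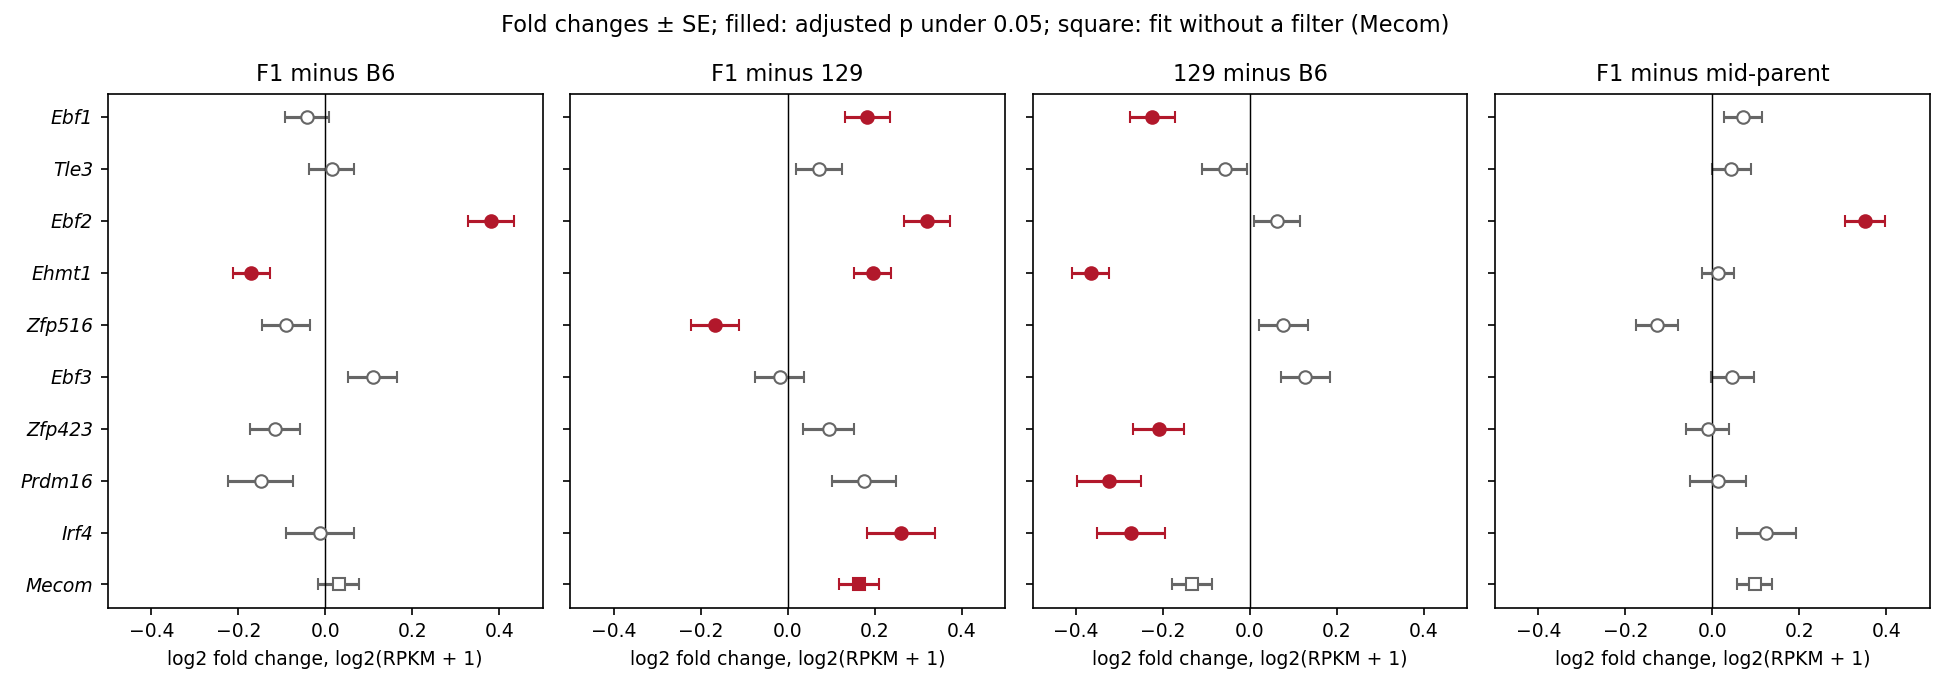
Differences of log2(RPKM + 1) with their standard errors for each member, in panels for F1 minus B6, F1 minus 129, 129 minus B6 and F1 minus mid-parent. Filled symbols passed an adjusted p of 0.05 in limma, and the square for Mecom comes from the fit without a filter. Ebf2 is filled in all F1 contrasts, at 0.38 against B6, 0.32 against 129 and 0.35 against the mid-parent value, and Ehmt1 has the lowest value of 129 minus B6, at -0.37.

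Over the 9 libraries, the values of log2(RPKM + 1) of Prdm16 and Ehmt1 had a Pearson correlation of 0.91, those of Prdm16 and Ebf1 one of 0.89, and those of Ehmt1 and Zfp423 one of 0.87. Ebf2 had a correlation of -0.04 with Prdm16 and -0.08 with Ehmt1, and the lowest value of any pair was -0.82, for Zfp516 and Irf4. The points share strain, library and depth, so these are descriptions. The genes most like a member were sought among those tested, with predicted genes, microRNA genes and genes named as RIKEN or other clones left out. Those most like Prdm16 were Pi4ka, a phosphatidylinositol kinase (r = 0.98), Notch3, a Notch receptor (r = 0.97), and Tsc2, the tuberin component of an mTOR inhibitor (r = 0.97). Those most like Ebf2 were Zbtb18, a transcriptional repressor (r = 0.98), Parp6, a mono-ADP-ribosyltransferase (r = 0.98), and Oxsr1, a stress-response kinase (r = 0.98). Those most like Irf4 were Fbxo8 (r = 0.99), Galm, a galactose mutarotase (r = 0.98), and Sfxn1, a mitochondrial serine carrier (r = 0.97).

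Genes beside the members moved in both directions. Of 14 nearest tested neighbours within 500 kb, 4 were higher in 129 than in B6 and 5 were lower, where 15.9% and 21.7% of all genes were. Beside Ehmt1, which fell, Psd4 was higher in 129 by 0.43 (SE 0.05, adjusted p 4.33e-05), and Arrdc1 on the other side did not pass at 0.05 (adjusted p 0.725). Beside Ebf1, Rnf145 was higher by 0.30 (SE 0.05, adjusted p 0.00125). Beside Irf4, Exoc2 was lower, at -0.25 (SE 0.05, adjusted p 0.00199), while Dusp22 did not pass in 129 minus B6 at -0.08 (adjusted p 0.275) and was higher in F1 than in 129 by 0.21 (adjusted p 0.0180). Beside members that did not pass between the parents, the DNA repair gene Mgmt next to Ebf3 was lower, at -0.56 (SE 0.10, adjusted p 9.67e-04) and Zfp236 next to Zfp516, at -0.52 (SE 0.08, adjusted p 4.18e-04). Mynn, next to Mecom, was lower, at -0.13 (SE 0.05, adjusted p 0.0449). Cnep1r1 next to Zfp423 and 9430038I01Rik next to Ebf3 did not pass, and Tle3 had no tested neighbour within that distance.

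Among relatives of the members, Zfp521 stood outside both parents in F1. It encodes a zinc-finger paralog of Zfp423 that inhibits EBF1 and, in mouse cells, adipocyte commitment. It had 3.69, 4.25 and 4.05 RPKM in F1, 5.58, 5.09 and 5.27 RPKM in 129, and 5.87, 5.76 and 5.54 RPKM in B6. All F1 libraries were below all parental ones, the opposite side from Ebf2. F1 was lower than B6, at -0.43 (SE 0.05, adjusted p 2.32e-04), than 129, at -0.34 (SE 0.05, adjusted p 0.00123) and than the mid-parent value, at -0.38 (SE 0.05, adjusted p 3.81e-04), and 9.70% of all genes tested had every F1 library below every parental one. Summed progenitor markers were also lowest in F1, although 1 of them was singly higher in F1 than in B6. The part of these markers in the Zfp521 difference was not tested.

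Of 15 PRDM family genes, 7 were tested, and in 129 minus B6 Prdm16 was the 1 that was lower and Prdm15 the 1 that was higher, by 0.15 (SE 0.05, adjusted p 0.0465). Over all genes tested, 21.7% were lower and 15.9% higher in this contrast. Against the mid-parent value, Prdm9 was higher in F1 by 0.23 (SE 0.06, adjusted p 0.0218). These 2 calls beside Prdm16 were each lost when 1 or another library was left out. Among the 6 TLE genes, Tle2 averaged 7.72 ± 0.481 RPKM in F1, 11.1 ± 0.645 RPKM in 129 and 9.45 ± 1.07 RPKM in B6 (SD, n = 3 each) and was lower than the mid-parent value, at -0.37 (SE 0.07, adjusted p 0.00319). Tle4 reached 1 RPKM in 0 F1, 0 129 and 3 B6 libraries and so entered the test only through B6, from which 129 differed by -0.28 (SE 0.07, adjusted p 0.00823). In the IRF family, 6 of 9 genes were tested. Irf3, which drives interferon responses, had its lowest mean in 129, as Irf4 did. It averaged 20.0 ± 0.828 RPKM in F1, 17.3 ± 0.481 RPKM in 129 and 22.6 ± 1.07 RPKM in B6 (SD, n = 3 each). The difference of 129 minus B6 was -0.37 (SE 0.05, adjusted p 1.30e-04). Irf7, an interferon-induced factor, had 23.7 RPKM in B6 replicate 1 against 5.15 and 7.05 RPKM in the other B6 libraries and did not pass.

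Partners of PRDM16 differed in both directions. Of 15 tested cofactor genes on a list of 16, 1 was higher and 5 were lower in 129 than in B6, 2 were higher and 3 lower in F1 than in B6, and 6 were higher and 0 lower in F1 than in 129. Over all genes tested, 15.9% were higher and 21.7% lower, 11.0% and 20.2%, and 12.0% and 15.7%. With median-of-ratios rescaling the balance in F1 against B6 turned, to 3 higher and 1 lower. The medians were -0.04, 0.01 and 0.06, beside -0.03, -0.04 and -0.01 over all genes tested. Hdac1, a histone deacetylase found in PRDM16 complexes, had 42.2, 38.9 and 38.3 RPKM in F1, 34.0, 31.2 and 31.8 RPKM in 129, and 55.4, 53.7 and 55.4 RPKM in B6, and was lower in 129, at -0.74 (SE 0.05, adjusted p 9.14e-07). No groups overlapped in Hdac1. Ppargc1a and Ppargc1b, genes of coactivators that PRDM16 binds, followed the same order between the parents. Ppargc1a averaged 7.27 ± 0.837 RPKM in F1, 5.40 ± 0.327 RPKM in 129 and 8.64 ± 0.374 RPKM in B6 (SD, n = 3 each), with 129 minus B6 at -0.59 (SE 0.07, adjusted p 8.53e-05). Ppargc1b was lower in 129 than in B6, at -0.44 (SE 0.08, adjusted p 0.00162). Pparg, the nuclear receptor that the drug in the medium activates, averaged 110 ± 6.45 RPKM in F1, 95.4 ± 5.09 RPKM in 129 and 91.2 ± 1.47 RPKM in B6 (SD, n = 3 each). It exceeded the mid-parent value in F1 by 0.23 (SE 0.05, adjusted p 0.00506), while the parents differed by 0.06 (adjusted p 0.387). Ppara, the related receptor of fatty acid oxidation, was higher than the mid-parent value by 0.40 (SE 0.06, adjusted p 0.00147) and lower in 129 than in B6, at -0.41 (SE 0.07, adjusted p 0.00120).

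Brown-selective genes downstream of PRDM16 and EBF2, which share Ppargc1a and Ppara with the list of partners, were counted next. Of 13 tested on a list of 16, 6 were higher and 3 lower in F1 than in B6, 8 higher and 3 lower than in 129, and 7 higher and 1 lower than the mid-parent value. Over all genes tested, the shares were 11.0% higher and 20.2% lower, 12.0% and 15.7%, and 8.35% and 14.8%. The medians of the list were 0.19, 0.32 and 0.31, beside -0.04, -0.01 and -0.03 over all genes tested. In 129 minus B6, 3 were higher and 6 lower, where 15.9% and 21.7% of all genes were, and the median was -0.03 for the list and for all genes. Among the 6 lower was Fabp3, named after its values were seen. It averaged 0.808 RPKM in 129, under the 1 RPKM of the filter, against 1.13 RPKM in F1 and 1.37 RPKM in B6. Over the alternative analyses, 4 to 7 were higher and 0 to 4 lower in F1 than in B6, and 6 to 7 were higher and 1 to 3 lower than the mid-parent value. Cidea, which enlarges lipid droplets in brown adipocytes, averaged 20.2 ± 1.65 RPKM in F1, 12.7 ± 1.38 RPKM in 129 and 6.93 ± 0.547 RPKM in B6 (SD, n = 3 each), and exceeded the mid-parent value by 1.03 (SE 0.07, adjusted p 2.63e-05). Ucp1, the uncoupling protein, averaged 52.4 ± 1.79 RPKM in F1, 62.6 ± 1.96 RPKM in 129 and 9.88 ± 0.752 RPKM in B6 (SD, n = 3 each). It was thus highest in 129, where Prdm16 was lowest. Cox8b, a subunit of cytochrome c oxidase, followed Prdm16 between the parents, at 45.3 ± 3.05 RPKM in F1, 21.1 ± 1.19 RPKM in 129 and 39.6 ± 1.34 RPKM in B6 (SD, n = 3 each), with 129 minus B6 at -0.88 (SE 0.06, adjusted p 9.14e-07). Elovl3, an elongase of brown fat named after its values were seen, was the 1 gene that passed as lower than the mid-parent value.

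**Figure D4:**
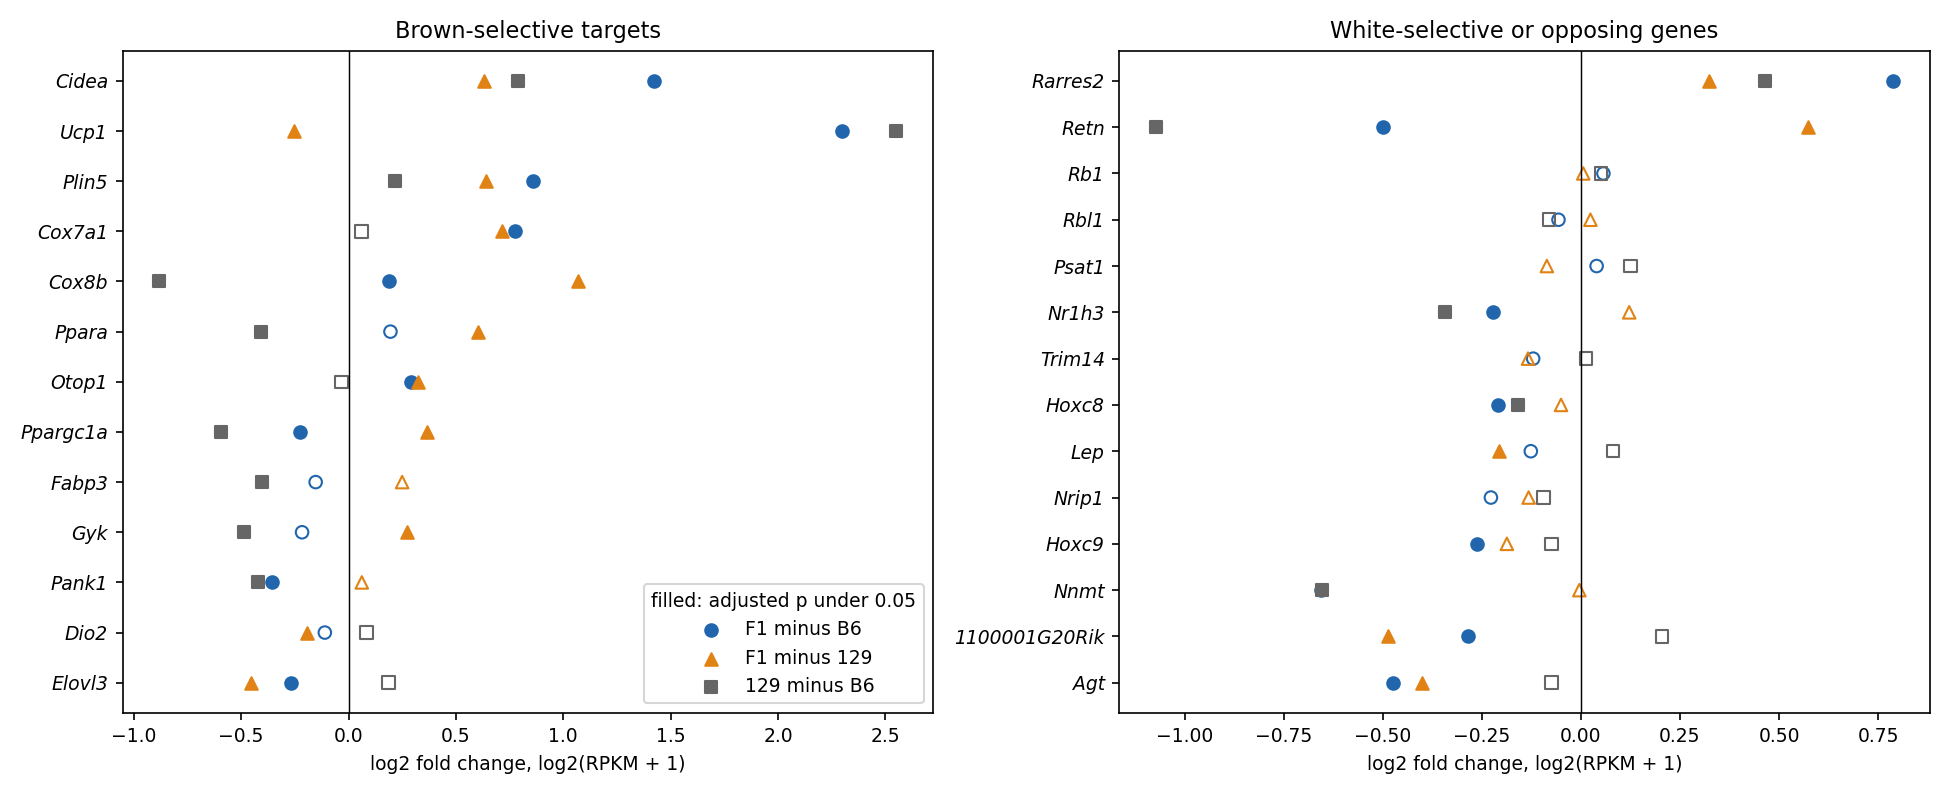
Differences of log2(RPKM + 1) for the tested genes of the brown-selective list (left) and the white-selective list (right). Circles are F1 minus B6, triangles F1 minus 129 and squares 129 minus B6, and filled symbols passed an adjusted p of 0.05 in limma. Ucp1 stands at 2.30, -0.25 and 2.55, and Retn at -0.50, 0.57 and -1.07.

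The white-selective list holds genes that PRDM16 represses or whose products oppose it. Of 14 tested on a list of 15, 1 was higher and 7 lower in F1 than in B6, 2 higher and 3 lower than in 129, and 1 higher and 6 lower than the mid-parent value. In 129 minus B6, 1 was higher and 4 lower. Over all genes tested, the lower calls in these comparisons were 20.2%, 15.7%, 14.8% and 21.7%, and the higher calls 11.0%, 12.0%, 8.35% and 15.9%. The medians of the list were -0.22, -0.07, -0.13 and -0.07, beside -0.04, -0.01, -0.03 and -0.03 over all genes. Over the alternatives, 4 to 8 were lower in F1 than in B6 and 2 to 6 lower than the mid-parent value. With median-of-ratios rescaling, 4 were lower in F1 than in B6 and 3 lower than the mid-parent value. Retn, the adipokine resistin, averaged 219 ± 23.9 RPKM in F1, 147 ± 8.38 RPKM in 129 and 309 ± 12.5 RPKM in B6 (SD, n = 3 each), with 129 minus B6 at -1.07 (SE 0.07, adjusted p 1.58e-06). Retn lay between the parents in F1, as Prdm16 did, and both were lowest in 129. Nnmt, a methyltransferase of white fat, averaged 65.2 ± 3.87 RPKM in F1, 65.4 ± 3.43 RPKM in 129 and 104 ± 11.5 RPKM in B6 (SD, n = 3 each). Nr1h3, the oxysterol receptor LXRα that opposes Ucp1 induction, was lower in 129 than in B6, at -0.34 (SE 0.06, adjusted p 9.21e-04). The white-selective gene Wfdc21, listed as 1100001G20Rik in these data, was lower in F1 than the mid-parent value, at -0.39 (SE 0.07, adjusted p 0.00420). The gene for the adipokine chemerin, Rarres2, went the other way, exceeding the mid-parent value in F1 by 0.55 (SE 0.06, adjusted p 2.07e-04) and B6 in 129 by 0.47 (SE 0.07, adjusted p 4.26e-04). Of 10 muscle genes that PRDM16 keeps silent, only Acta1 was tested, with values of 0.38 for 129 minus B6 (adjusted p 0.0542) and 0.29 for F1 minus B6 (adjusted p 0.138). The first passed with median-of-ratios rescaling (adjusted p 0.0420), with voom on recovered reads (0.63, adjusted p 0.0211), with the replicate block (adjusted p 0.0430) and without B6 replicate 2 (0.57, adjusted p 4.48e-04), and the second with voom on recovered reads (0.50, adjusted p 0.0458) and without B6 replicate 2 (0.48, adjusted p 0.00185).

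Among 28 tested of 36 other regulators of brown and beige fate, 4 were higher and 4 lower in 129 than in B6, 4 higher and 5 lower in F1 than in B6, and 4 higher and 6 lower in F1 than the mid-parent value. Over all genes tested, 15.9% were higher and 21.7% lower, 11.0% and 20.2%, and 8.35% and 14.8%. With median-of-ratios rescaling the balance of the F1 counts turned, to 6 higher and 3 lower against B6 and 4 higher and 3 lower against the mid-parent value. Tbx15, a T-box factor of adipose depots, averaged 12.0 ± 0.132 RPKM in F1, 16.3 ± 0.633 RPKM in 129 and 15.4 ± 0.122 RPKM in B6 (SD, n = 3 each), and was lower in F1 than the mid-parent value, at -0.37 (SE 0.03, adjusted p 7.56e-05). Smad3, which carries TGF-β signals that restrain browning in mice, was lower, at -0.22 (SE 0.04, adjusted p 0.00488). Between the parents, Lhx8, a marker of brown fat in mice, and Thrb, a thyroid hormone receptor, were higher in 129 by 0.54 (SE 0.07, adjusted p 1.52e-04) and 0.32 (SE 0.05, adjusted p 9.53e-04). Lhx8 reached 1 RPKM in 2 F1, 3 129 and 0 B6 libraries, so it entered the test only through the groups in which it was higher. The chromatin remodelling subunit Smarcd3 was lower in 129, at -0.26 (SE 0.05, adjusted p 0.00253).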

How the data were processed

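Values are RPKM as the authors deposited them, 1 per gene and library, from libraries of a stranded poly(A) kit, per the labels. STAR and the build mm9 are named in the submitters' processing notes. For the counter, its strand setting, the annotation and any filter, the sources used here give nothing. The mm9 sequence is that of C57BL/6J, and any loss of 129 reads in alignment was not measured. Steps of 1 read gave back whole reads (tolerance 0.1 read) and each library's depth. Of 24015 rows, 2 were dropped because their symbol stood on another row with more signal, and 5 unnamed columns were not used.

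The 11542 genes that reached an RPKM of 1 in 3 or more of the 9 libraries were fitted as log2(RPKM + 1) with limma 3.58.1 under R 4.3.3, with 1 mean per group and a mean-variance trend. P-values are two-sided, and calls use a Benjamini-Hochberg adjusted p under 0.05, taken over these genes. Exact permutation tests of 3 libraries against 3 used scipy 1.17.1 and cannot go below a p of 0.1. The procedure was tested on simulated data. Alternatives were another pseudocount, other filters, median-of-ratios rescaling, voom on recovered reads, no trend, only the groups compared in the fit, a linear mid-parent value, the replicate number as a block, and leaving out each library. The members and lists were chosen with earlier results of these data known, so their counts are descriptions. All 10 members are named, with up to 4 genes a list of smallest p in 129 minus B6, up to 2 in F1 minus mid-parent, the 3 genes most like Prdm16, Ebf2 and Irf4, and the nearest tested neighbours. Some genes that this rule names are not reported here. Any other gene was named after its values were seen. Promoters are RefSeq's, matched by symbol for 8 of 10 members. Because the values are RPKM, no count model was the main test.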

Additional observations from a re-analysis of the deposited data

How the results depend on the processing

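Of 668 values of a member under an alternative, 611 kept their direction and their side of the threshold, 35 lost a call, 5 gained one and 17 changed sign, none of them past the threshold. The number of members called was 1 in F1 minus B6 with median-of-ratios rescaling, in place of 2, since Ehmt1 was lost. It was 2 in F1 minus mid-parent with voom on recovered reads, in place of 1, since Zfp516 was gained at -0.15. It was 2 to 5 in F1 minus 129, in place of 5, when single libraries were left out. Changes of sign came with median-of-ratios rescaling for Ebf1 (0.0142) and Irf4 (0.0171) in F1 minus B6 and for Zfp423 (0.0201) in F1 minus mid-parent. They also came on leaving out single libraries, with ranges of -0.0779 to 0.00381 for Ebf1, -0.0155 to 0.0484 for Tle3, -0.0689 to 0.0468 for Irf4 and -0.0145 to 0.0776 for Mecom in F1 minus B6, -0.0544 to 0.0163 for Ebf3 in F1 minus 129, and -0.0182 to 0.0672 for Prdm16, -0.00777 to 0.0313 for Ehmt1 and -0.0446 to 0.0255 for Zfp423 in F1 minus mid-parent. The cause of these changes was not tested. With the replicate number as a block, 2, 5, 1 and 5 members were called in F1 minus B6, F1 minus 129, F1 minus mid-parent and 129 minus B6, as without it, and 3546, 3066, 2587 and 4267 genes, in place of 3599, 3200, 2676 and 4333. The numbers were not taken to pair the libraries, since 4 of 9 same-numbered pairs, and not all, had correlated deviations above 0.1 (range -0.19 to 0.22). In 11 of 18 comparisons of a library with another group the correlation was highest for its own number, a hint from the data and not from the design. Irf4 has no value with a filter on the mean RPKM. Depth limits Mecom and Irf4 most, at 41 and 79 reads in their lowest libraries.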
